A study of Mus musculus with 48 samples.

Results

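Serotonin reaches the hippocampus through axons from the raphe nuclei and acts on its neurons through a family of receptor genes. The 10 serotonin receptor genes described here are Htr1a, Htr1b, Htr1d, Htr1f, Htr2a, Htr2c, Htr4, Htr5a, Htr5b and Htr7, taken by name from the 37620 genes of the count table and followed through all 16 neuron populations of the series. Mouse neurons made fluorescent were sorted by hand from microdissected slices, and RNA from each pool was amplified and sequenced, with 3 libraries per population and 48 in all. The interneuron populations were PV interneurons and SST interneurons of CA1, named for parvalbumin and somatostatin. The CA1 pyramidal populations were cells at 3 positions on the long axis (dorsal, intermediate, ventral), on the transverse axis (proximal, distal) and at different depths of the cell layer (superficial, deep), postsubiculum-projecting cells of dorsal CA1, and cells of ventral CA1 that project to the amygdala or to the nucleus accumbens. Pyramidal cells of dorsal and ventral CA3 and granule cells of the dorsal and ventral dentate gyrus (DG) completed the set. The labels give no strain, age, sex, fluorescent reporter line or tracer for any group, so what marked each population, and how many animals went into a pool, is not given in the sources used here. Nothing in the labels ties a library to an animal beyond the series' description of biological replicates, so p-values measure the spread between these samples.

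Serotonin receptors differ in the signal they pass on. Htr1 receptors couple to Gi/o proteins, which lower cyclic AMP and open inwardly rectifying potassium channels, so their activation usually quiets a neuron. Htr2 receptors couple to Gq/11 and phospholipase C, and Htr4 and Htr7 couple to Gs and raise cyclic AMP, both of which usually excite. Htr5a has been reported to couple to Gi/o, and the coupling of Htr5b, a pseudogene in humans, is poorly known. In the rodent hippocampus Htr1a is known as the main receptor through which serotonin hyperpolarises pyramidal cells.

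Gene reads per library numbered 5.12 M to 31.98 M, and ERCC spike-in RNA took 0.0154% to 8.29% of reads. Levels are given as CPM, counts per M gene reads after TMM scaling over the 48 libraries, and CPM is used to compare 1 gene between populations. Label genes stood where the labels put them: Prox1, a granule cell factor, was at 1062 CPM or more in all 6 DG libraries and at most 25.6 CPM elsewhere, and Gad2, which makes GABA, was at 2659 CPM or more in all 6 interneuron libraries. Several libraries also carried markers of other cells. Gad2 reached 114, 372 and 561 CPM in the deep CA1 libraries, 101 CPM in superficial CA1 replicate 3, 57.7 CPM in postsubiculum-projecting replicate 2 and 44.3 CPM in proximal CA1 replicate 1, against at most 1.40 CPM in dorsal CA1. Sst reached 506 CPM in accumbens-projecting replicate 3 and 117 CPM in deep CA1 replicate 1. Kdr, an endothelial gene, was at 31.3 to 95.9 CPM in amygdala-projecting and 10.6 to 52.7 CPM in accumbens-projecting CA1, and at most 3.35 CPM in ventral CA1. The other endothelial markers listed did not stand out: Cldn5 was at most 0.529, Flt1 at most 4.48 and Pecam1 at most 7.12 CPM in any library. In ventral CA3, Calb2 stood at 325 CPM in replicate 3 against 78.2 and 121 CPM in the other libraries, while Coch stood at 25.1 against 162 and 168 CPM. In the SST interneurons, replicate 3 had 315 CPM of Npy against 2170 CPM or more in the others. Of 5 choroid plexus markers, Ttr, the defining gene of the choroid plexus, where Htr2c is abundant, was at most 0.392 CPM in any library. The summed level of all 5 ranged from 0.0406 to 148 CPM, nearly all of it Kl, which neurons also express. The part these cells play in the results below was not tested unless a value is given, and fewer expressing cells in a pool cannot be told apart from less RNA per cell.

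Every one of the 10 receptor genes differed among the 16 populations, by edgeR's quasi-likelihood F test at an adjusted p under 0.05, and 65.3% of all genes tested did so. Htr1a reached the highest mean level, with 214 ± 38.0 CPM in superficial CA1 at the top and 0.811 ± 0.561 CPM in PV interneurons at the bottom (SD, n = 3 each). Htr2a peaked at 117 ± 68.9 CPM in ventral CA3, Htr2c at 107 ± 75.5 CPM in accumbens-projecting CA1, Htr5a at 57.0 ± 13.0 CPM in the same cells and Htr5b at 41.5 ± 7.51 CPM in ventral CA1. Htr4 peaked at 26.8 ± 7.91 CPM in dorsal DG, Htr1f at 25.6 ± 6.27 CPM in PV interneurons and Htr7 at 17.1 ± 3.83 CPM in ventral CA3. Htr1b never passed 7.02 ± 3.19 CPM, its mean in superficial CA1. Htr1b shares exon sequence with an antisense gene, D430036J16Rik, and because the strand used in counting is not given, reads of these genes cannot be told apart.

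**Figure D1:**
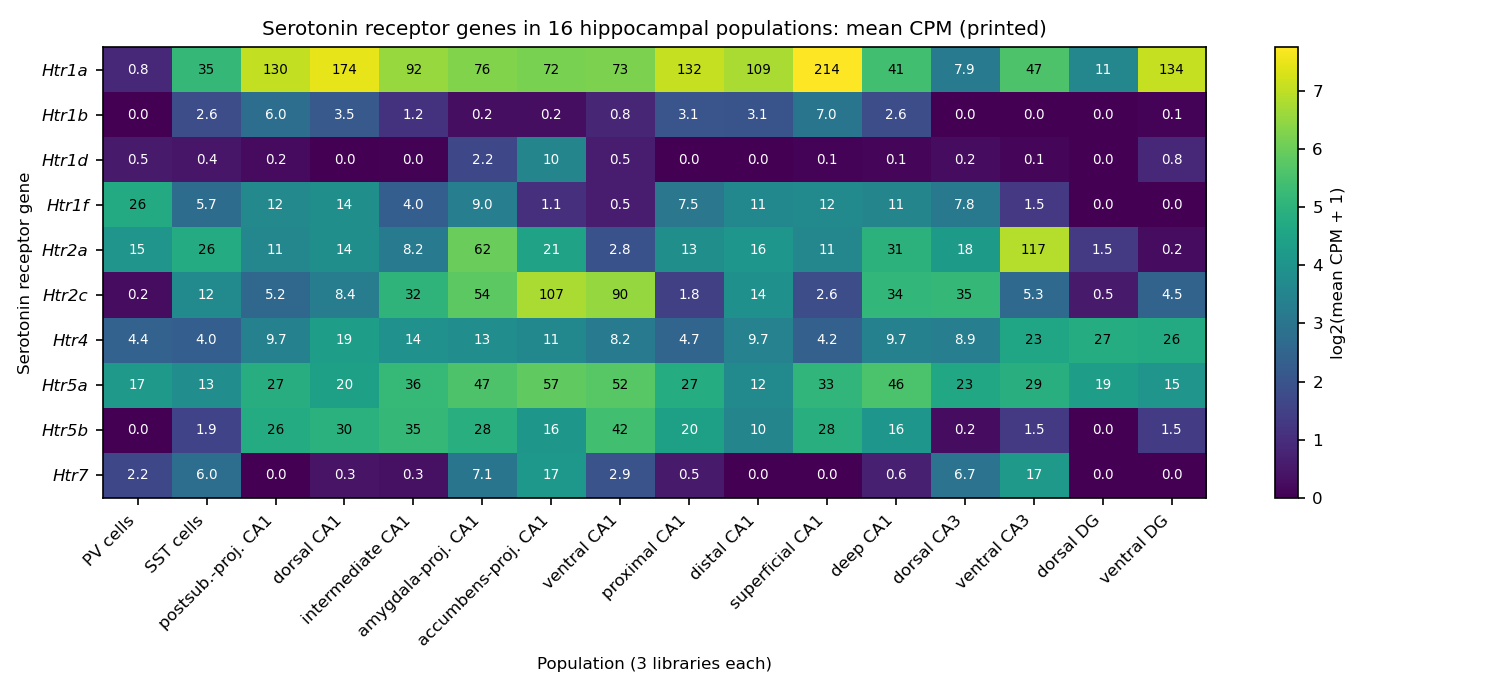
Mean CPM of the 10 serotonin receptor genes (rows) in the 16 populations (columns, 3 libraries each), printed in each cell and coloured by log2(mean CPM + 1). Htr1a is bright through CA1 and in ventral DG and dark in PV interneurons and dorsal CA3, Htr2a is brightest in ventral CA3, and Htr2c is brightest in ventral and accumbens-projecting CA1.

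To compare the 10 receptor genes with each other within a population, the authors' FPKM values, which are scaled by transcript length, were used. Htr1a led in 7 populations in all 3 libraries: postsubiculum-projecting, dorsal, intermediate, proximal, distal and superficial CA1, and ventral DG. Its mean FPKM was highest in superficial CA1, at 52.2, where Htr5b followed at 13.4. Htr2a led in deep CA1 at 11.1 FPKM with Htr1a at 10.5, in amygdala-projecting CA1 at 23.8, in ventral CA3 at 40.2 and in SST interneurons at 9.62. It led in all 3 libraries of ventral CA3 and SST interneurons and in 2 of 3 libraries of the other two. Htr2c led in accumbens-projecting CA1 at 29.0 FPKM in all 3 libraries, in dorsal CA3 at 8.30 in 2 of 3, and in ventral CA1 at 22.6 in 1 of 3, where Htr5b had 21.5 and Htr1a 18.8. Htr1f led in PV interneurons at 11.3 FPKM and Htr4 in dorsal DG at 6.15 FPKM, each in 2 of 3 libraries. Htr6, which is not among the 10 genes, averaged 7.89 ± 7.04 FPKM in dorsal DG (SD, n = 3). The FPKM of the 10 genes summed to 93.3 ± 34.5 in accumbens-projecting CA1 at the top and 14.0 ± 7.47 in dorsal DG at the bottom (SD, n = 3 each).

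By coupling class, the Gi/o-coupled Htr1 genes took 76.3% ± 0.466 of the summed FPKM in ventral DG, 71.7% ± 2.00 in superficial CA1 and 54.8% ± 14.3 in PV interneurons (SD, n = 3 each). Along the long axis of CA1 their share was 63.5% ± 4.42 in dorsal, 41.1% ± 5.44 in intermediate and 26.4% ± 9.46 in ventral cells, and the 3 groups of libraries did not overlap. The Gq/11-coupled Htr2 genes took the largest share in CA3, at 50.0% ± 7.53 in dorsal and 53.9% ± 14.5 in ventral cells. The Gs-coupled genes Htr4 and Htr7 took 48% ± 17.0 in dorsal DG and at most 16.7% ± 2.92 elsewhere. These shares leave out Htr6, which is also coupled to Gs. Htr5a and Htr5b together took 40.6% ± 1.84 in ventral CA1, their highest share. These shares were described without a test.

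**Figure D2:**
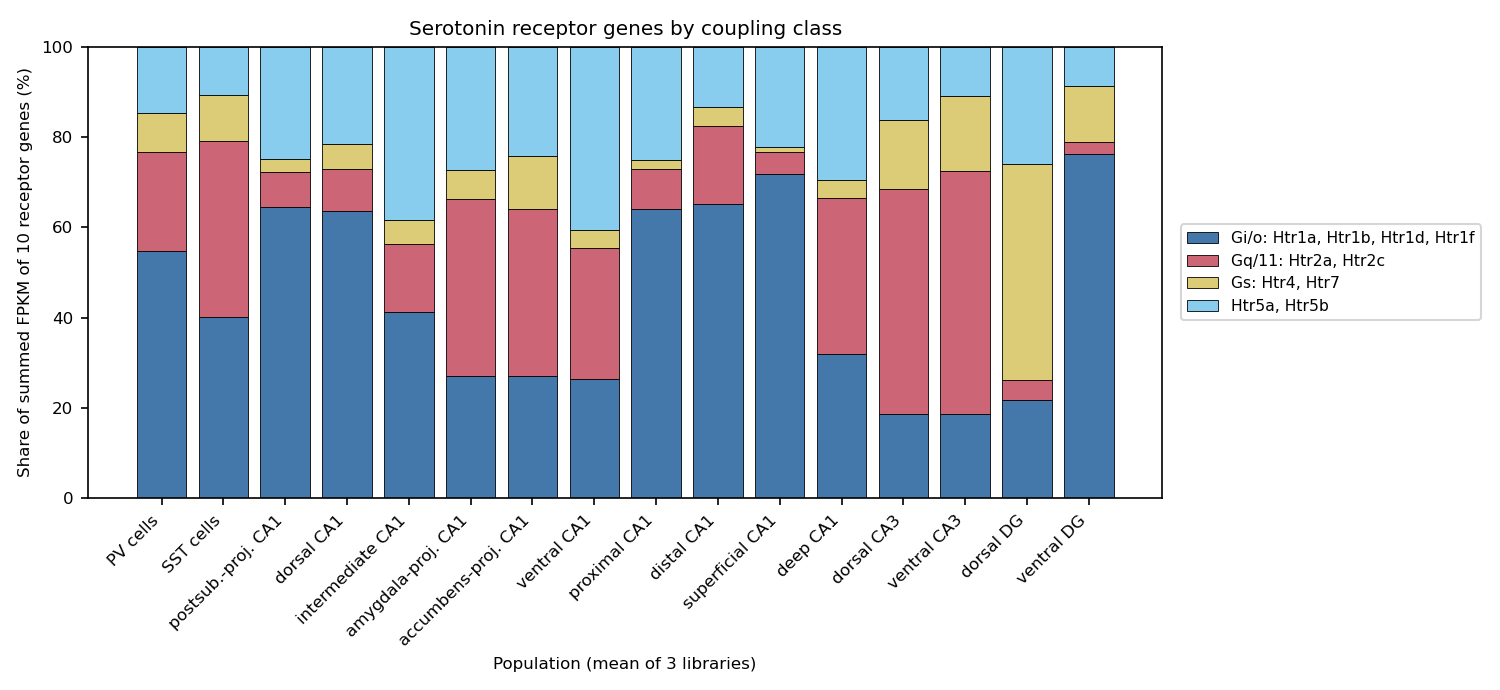
Share of the summed FPKM of the 10 receptor genes (percent, from 0 to 100) held by each coupling class in the 16 populations, as the mean of 3 libraries. The Gi/o segment is largest in ventral DG and superficial CA1, the Gq/11 segment in dorsal and ventral CA3, and the Gs segment in dorsal DG.

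Dorsal over ventral CA1 asked how receptor genes differ along the long axis within a cell type. Htr1a, Htr1f, Htr2a and Htr4 were higher in dorsal CA1 and Htr5a was lower. These 5 genes are 5 of the 8 receptor genes with enough reads to be tested, beside 15.1% of all 12149 genes called, 7.17% as higher and 7.95% as lower in dorsal CA1. In dorsal over intermediate CA1, 1 of 8 was called, beside 4.93% of all genes (1.69% higher, 3.24% lower), and in intermediate over ventral CA1 also 1 of 8, beside 5.03% (3.12% higher, 1.91% lower). In dorsal over ventral CA1, the median log2 fold change was 1.19 over the 8 receptor genes and -0.01 over all genes tested. Htr1d and Htr7 had too few reads in these groups for the test.

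Among the Gi/o-coupled genes, Htr1a had 142, 190 and 189 CPM in the dorsal libraries, 110, 94.1 and 73.0 CPM in the intermediate libraries, and 61.5, 63.1 and 95.0 CPM in the ventral libraries. All dorsal libraries lay above all others, and intermediate and ventral libraries overlapped. The log2 fold change of dorsal over ventral was 1.19 (SE 0.19, adjusted p = 0.000188, edgeR quasi-likelihood test) and that of dorsal over intermediate 0.87 (SE 0.19, adjusted p = 0.00917). The second was lost without dorsal replicate 3 (adjusted p = 0.0558) and without intermediate replicate 3 (adjusted p = 0.0637), with limma on log2(FPKM + 1) or log2(FPKM + 0.1) (0.0808 and 0.081) and in a fit of all 48 libraries (0.708). Htr1f, a receptor known as a target of migraine drugs, had 11.8, 14.9 and 14.2 CPM in dorsal cells, 5.99, 2.72 and 3.32 CPM in intermediate cells, and 0, 1.27 and 0.231 CPM in ventral cells. The 3 groups did not overlap. Dorsal over ventral gave 4.86 (SE 0.80, adjusted p = 0.000221) and intermediate over ventral 3.13 (SE 0.79, adjusted p = 0.0238). The call of intermediate over ventral was lost without intermediate replicate 1, ventral replicate 1 or ventral replicate 3 (adjusted p = 0.0962, 0.0612 and 0.0988), with limma on either FPKM scale (0.116 and 0.0657) and with all 48 libraries (0.581). Htr1b had 3.39, 3.48 and 3.52 CPM in dorsal libraries and 0, 0.906 and 1.39 CPM in ventral libraries, which do not overlap, yet its adjusted p was 0.202.

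Among the Gq/11-coupled genes, Htr2a, the receptor through which psychedelics act, had 14.2, 18.9 and 7.76 CPM in dorsal and 3.51, 3.99 and 1.04 CPM in ventral libraries, with a log2 fold change of 2.21 (SE 0.59, adjusted p = 0.0133). The groups did not overlap. That call was lost without dorsal replicate 2 (adjusted p = 0.0716) or ventral replicate 3 (adjusted p = 0.0607). Htr2c, whose transcript is edited by adenosine deaminases, had 15, 2.73 and 7.62 CPM in dorsal cells, 15.4, 67.7 and 12.5 CPM in intermediate cells, and 141, 66.3 and 63.8 CPM in ventral cells. All ventral libraries lay above all dorsal ones, and the log2 fold change of -3.48 (SE 0.93) had an adjusted p of 0.0502 by edgeR. It was called with DESeq2's size factors in place of TMM (adjusted p = 0.0497), by DESeq2's Wald test (0.000511) and by limma on FPKM (0.0057 and 0.0081).

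Htr4, coupled to Gs, had 19.9, 18.4 and 19.7 CPM in dorsal libraries, against 4.64, 11.2 and 8.78 CPM in ventral libraries. The groups did not overlap, and the log2 fold change was 1.18 (SE 0.37, adjusted p = 0.0342), but the call held in 1 of 6 fits with a library left out (adjusted p = 0.0709 to 0.114 where a dorsal replicate, ventral replicate 1 or ventral replicate 3 was left out). With the replicate number as a block its adjusted p was 0.0547, and with limma on either FPKM scale 0.102 and 0.103. Htr5a had 18.3, 23.5 and 18.1 CPM in dorsal cells, 35.4, 35.6 and 35.7 CPM in intermediate cells, and 72.3, 38.0 and 45.2 CPM in ventral cells. The 3 groups followed each other without overlap, and dorsal over ventral gave -1.44 (SE 0.25, adjusted p = 0.000437), held in all 6 fits with a library left out. Htr5b, at 14.6, 19.6 and 54.9 CPM in dorsal and 50.0, 35.7 and 38.9 CPM in ventral libraries, overlapped between the groups (adjusted p = 0.403). Without dorsal replicate 3, its highest library, it was called as lower in dorsal cells (adjusted p = 0.00317).

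In a fit of all 48 libraries, where the shared spread was larger, 1 of the 5 genes, Htr1f, kept its call between dorsal and ventral CA1. There the adjusted p was 0.133 for Htr1a, 0.0900 for Htr2a, 0.410 for Htr4 and 0.121 for Htr5a.

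**Figure D3:**
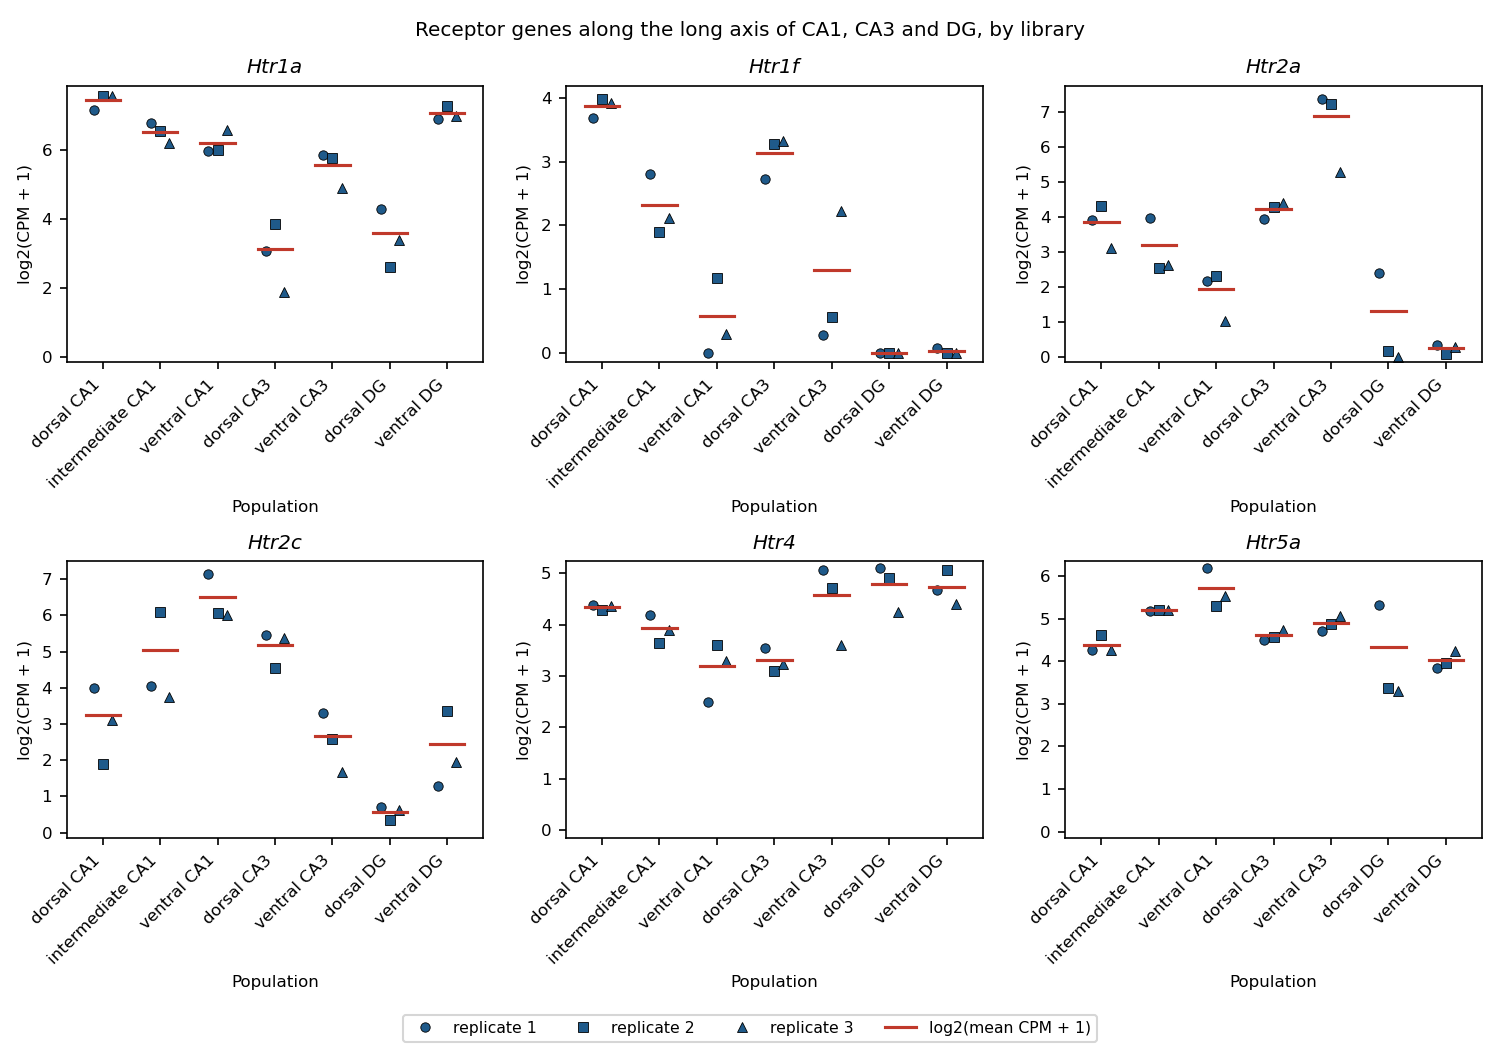
Levels of 6 receptor genes by library, as log2(CPM + 1), in dorsal, intermediate and ventral CA1, dorsal and ventral CA3, and dorsal and ventral DG. Symbols are replicates and the red line is log2(mean CPM + 1). Htr1a is higher in dorsal than in ventral CA1 and lower in dorsal than in ventral CA3 and DG.

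Promoter sequences are shown for the members called between dorsal and ventral CA1 that have an entry in the RefSeq table and may be printed. Of the 10 genes, 8 have an entry. Each runs from 250 bases before to 50 bases after the annotated start, read in the direction of the gene, on build GRCm38.p6, which is not the build of the deposited counts. Capitals mark matches, on either strand, to 4 short motifs. Htr1a lies at chr13:105443443-105443742 on the plus strand, Htr1f at chr16:65105735-65106034 on the minus strand, Htr2a at chr14:74640624-74640923 on the plus strand and Htr5a at chr5:27841697-27841996 on the plus strand.
Htr1a: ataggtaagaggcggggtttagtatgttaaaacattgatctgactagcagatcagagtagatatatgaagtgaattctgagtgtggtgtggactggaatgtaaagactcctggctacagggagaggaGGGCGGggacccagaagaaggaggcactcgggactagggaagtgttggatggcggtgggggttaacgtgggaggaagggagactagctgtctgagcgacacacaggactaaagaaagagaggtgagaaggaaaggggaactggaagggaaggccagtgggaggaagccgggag
Htr1f: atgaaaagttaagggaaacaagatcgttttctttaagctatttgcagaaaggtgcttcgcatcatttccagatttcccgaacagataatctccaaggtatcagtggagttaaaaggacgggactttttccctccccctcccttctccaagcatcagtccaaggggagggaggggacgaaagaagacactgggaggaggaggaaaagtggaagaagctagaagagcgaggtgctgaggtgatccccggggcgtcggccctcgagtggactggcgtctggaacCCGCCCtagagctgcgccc
Htr2a: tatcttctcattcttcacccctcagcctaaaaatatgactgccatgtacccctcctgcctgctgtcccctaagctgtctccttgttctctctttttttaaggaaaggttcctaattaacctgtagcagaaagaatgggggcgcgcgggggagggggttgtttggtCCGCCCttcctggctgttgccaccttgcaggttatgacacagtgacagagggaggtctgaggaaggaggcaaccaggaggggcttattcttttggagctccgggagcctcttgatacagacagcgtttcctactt
Htr5a: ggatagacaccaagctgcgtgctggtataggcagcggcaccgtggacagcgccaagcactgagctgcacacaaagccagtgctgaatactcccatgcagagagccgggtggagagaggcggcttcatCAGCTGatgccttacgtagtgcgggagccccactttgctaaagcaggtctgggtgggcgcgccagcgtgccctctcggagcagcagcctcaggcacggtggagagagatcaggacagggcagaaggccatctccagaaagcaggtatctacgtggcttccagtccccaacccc
The GC box (GGGCGG) had 1 match in each of the windows of Htr1a, Htr1f and Htr2a and none in that of Htr5a, and 35.7% of all 32851 promoters hold it. Htr4, also called in this comparison, was not searched here. The E-box (CANNTG) had 1 match, in Htr5a, against 72.3% of all promoters. No TATA box (TATAAA, in 13.6% of promoters) or CCAAT box (CCAAT, in 37.4%) was found in the 4 windows. The motifs do not overlap in these windows, and a match is a description of letters only.

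In CA3 the long axis of several of these genes ran the other way. Of the 10 receptor genes tested in CA3, 3 were called, beside 4.97% of all 15549 genes (2.5% higher and 2.48% lower in dorsal CA3). Htr1a was lower in dorsal CA3, at 7.51, 13.4 and 2.68 CPM, than in ventral CA3, at 57.3, 54.3 and 28.7 CPM. The groups did not overlap and the log2 fold change was -2.56 (SE 0.45, adjusted p = 0.000964). Htr2a had 14.3, 18.5 and 20.1 CPM in dorsal CA3 and 165, 148 and 38.0 CPM in ventral CA3, with replicate 3 of the ventral cells far below the others. Its log2 fold change was -2.72 (SE 0.76, adjusted p = 0.0401), a call that held in 1 of 6 fits with a library left out and was lost where dorsal replicate 1, 2 or 3, or ventral replicate 1 or 2, was left out (adjusted p = 0.133 to 0.191). It was also lost with the replicate number as a block (adjusted p = 0.0693), by DESeq2's Wald test (0.0799), without the filter on low counts (0.201) and with limma on log2(FPKM + 0.1) (0.191). Htr2c was higher in dorsal CA3, at 42.8, 22.3 and 40.3 CPM, than in ventral CA3, at 8.82, 4.97 and 2.18 CPM, with a log2 fold change of 2.73 (SE 0.65, adjusted p = 0.0144). The call was lost without dorsal replicate 3 (adjusted p = 0.0521), ventral replicate 2 (0.0751) or ventral replicate 3 (0.0678), and in the fit of all 48 libraries (0.203). Htr4 had 10.8, 7.54 and 8.47 CPM in dorsal and 32.5, 25.4 and 11.2 CPM in ventral libraries, without overlap (adjusted p = 0.0651). Htr5b had 0.548, 0 and 0 CPM in dorsal and 2.32, 1.64 and 0.554 CPM in ventral libraries (adjusted p = 0.0693). Without ventral replicate 3, the library with the most Calb2 given above, Htr1f, Htr4 and Htr5b were called as well (adjusted p = 0.0425, 0.0189 and 0.0421), and Htr2a kept its call. Without dorsal replicate 1, which holds all dorsal reads of Htr5b, Htr5b was called (adjusted p = 0.00216). Markers of other cells also differed between these groups. The summed level of 3 mossy cell markers (Calb2, Drd2, Calcrl) was 4.58 to 9.38 CPM in dorsal and 83.1 to 359 CPM in ventral CA3, and that of 3 CA2 pyramidal markers (Amigo2, Rgs14, Cacng5) 14.1 to 23.9 CPM in dorsal and 59.8 to 194 CPM in ventral CA3. Calb2 made up most of the mossy cell sum in the ventral libraries, at 325 CPM in the highest. Amigo2 alone reached 182 CPM in a ventral CA3 library, where the CA2 sum was nearly all that gene. Neither sum therefore shows a rise of all 3 of its genes. The part of these markers in the differences of CA3 was not tested.

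In DG, 3 of 10 receptor genes were called, beside 19.4% of all genes (8.71% higher and 10.6% lower in dorsal DG). Htr1a was at 18.8, 5.10 and 9.47 CPM in dorsal granule cells and at 120, 156 and 125 CPM in ventral granule cells, a log2 fold change of -3.56 (SE 0.47, adjusted p = 2.29e-05). The groups lay far apart, and the call held in all 6 fits with a library left out. Htr2c had 0.635, 0.276 and 0.549 CPM in dorsal and 1.45, 9.16 and 2.86 CPM in ventral libraries (log2 fold change -3.16, SE 0.82, adjusted p = 0.01), and without ventral replicate 2 its adjusted p was 0.0812. That call was lost with limma on log2(FPKM + 1) (log2 fold change -0.82, adjusted p = 0.254) and log2(FPKM + 0.1) (0.0573), and with all 48 libraries (0.091). Htr5b had no read in any dorsal DG library, against 1.40, 1.31 and 1.94 CPM in ventral DG, which is at least 3.85-fold lower in dorsal DG at a floor of 3 reads per library (adjusted p = 0.0075, and 0.155 with limma on log2(FPKM + 1)). Htr4, which had the highest FPKM of the 10 genes in dorsal DG, overlapped along this axis, at 33.3, 29.1 and 18 CPM in dorsal and 24.4, 32.2 and 20.3 CPM in ventral cells, with a log2 fold change of 0.08 (SE 0.41, adjusted p = 0.922). Htr2a was near 0 in DG, at 4.32, 0.138 and 0 CPM in dorsal and 0.279, 0.0654 and 0.229 CPM in ventral libraries (adjusted p = 0.0534). It was called without dorsal replicate 2 or 3 (adjusted p = 0.0229 and 0.0169), by DESeq2's Wald test (0.038) and with all 48 libraries (0.0366). Htr1f, Htr7 and Htr1b had no read in dorsal DG and at most 0.131 CPM in ventral DG.

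The difference between these gradients was tested as an interaction. In CA3, 4 of 10 receptor genes, Htr1a, Htr2a, Htr2c and Htr4, had dorsal-ventral differences in CA3 that departed from those in CA1, beside 3.52% of all genes (2.21% above and 1.31% below 0). The departure, as dorsal over ventral in CA3 minus the same in CA1, was -3.77 for Htr1a (SE 0.62, adjusted p = 0.000642), -4.96 for Htr2a (SE 1.10, adjusted p = 0.00993), 6.18 for Htr2c (SE 0.93, adjusted p = 0.000266) and -2.56 for Htr4 (SE 0.59, adjusted p = 0.0135). Those of Htr1a, Htr2a and Htr2c held in all 12 fits with a library left out, and that of Htr4 in 11, with an adjusted p of 0.0609 without ventral CA3 replicate 1. Htr2a lost its call without the filter on low counts (adjusted p = 0.0907) and with limma on log2(FPKM + 0.1) (0.0631), and Htr4 with limma on log2(FPKM + 1) (0.0517) and log2(FPKM + 0.1) (0.0564) and with all 48 libraries (0.174). The mossy cell and CA2 sums given above stood on the same side as Htr1a, Htr2a and Htr4 in CA3. The mossy cell sum was mostly Calb2 in the ventral libraries, and the CA2 sum was nearly all Amigo2 in a ventral library. In DG against CA1, Htr1a departed by -4.77 (SE 0.63, adjusted p = 5.17e-05) in all 12 such fits. Htr5b departed too (adjusted p = 0.046), with no read in dorsal DG, so that its fitted size depends on the prior count. It kept its call without dorsal CA1 replicate 1 and lost it without any 1 of the other 11 libraries (adjusted p = 0.0542 to 0.101) with the replicate block (adjusted p = 0.0571), with all 48 libraries (0.0607) and with limma on either FPKM scale (0.963 and 0.15). Of all genes, 9.71% were called in this test (4.62% above and 5.09% below 0). Htr5a in DG (adjusted p = 0.075) was called without dorsal DG replicate 2 or 3 (adjusted p = 0.0194 and 0.017), and Htr5b in CA3 (adjusted p = 0.381) without dorsal CA3 replicate 1 (adjusted p = 0.0125).

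Averaged over dorsal and ventral cells, the 3 regions had different receptor sets. In CA1 over CA3, 5 of 10 receptor genes were called, beside 13.5% of all genes (5.34% higher and 8.15% lower in CA1), and all 5 calls held in all 12 fits with a library left out. Htr1a (log2 fold change 2.58, SE 0.32, adjusted p = 3.97e-06), Htr1b (7.11, SE 1.32, adjusted p = 0.00108) and Htr5b (6.09, SE 0.66, adjusted p = 1.73e-06) were higher in CA1. Htr1b had 0 to 3.52 CPM in the 6 CA1 libraries, 0 CPM in 5 of 6 CA3 libraries and 0.0346 CPM in the other. Its fitted fold therefore depends on the prior count, and its log2 fold change ran from 1.49 to 7.76 over the alternative runs. Htr5b had 14.6 to 54.9 CPM in CA1 and at most 2.32 CPM in CA3. Htr2a (-2.86, SE 0.55, adjusted p = 0.000879) and Htr7 (-3.42, SE 0.59, adjusted p = 0.000374) were lower in CA1. For Htr2a, dorsal CA1, at 7.76 to 18.9 CPM, and dorsal CA3, at 14.3 to 20.1 CPM, overlapped. Ventral CA1, at 1.04 to 3.99 CPM, and ventral CA3, at 38.0 to 165 CPM, did not. Htr7, a Gs-coupled receptor, had 0.199, 0.205 and 0.586 CPM in dorsal CA1 and 4.39, 3.80 and 0.577 CPM in ventral CA1, against 5.43, 9.64 and 5.16 CPM in dorsal CA3 and 20.4, 18 and 12.9 CPM in ventral CA3.

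In CA1 over DG, 9 of 10 receptor genes were called, beside 33.1% of all genes (17.4% higher and 15.7% lower in CA1): 8 were higher in CA1, and Htr4 was lower, with a log2 fold change of -1.05 (SE 0.29, adjusted p = 0.00891). Htr1a was higher by 1.56 (SE 0.31, adjusted p = 0.000507) as an average of dorsal and ventral cells, although ventral DG, at 134 ± 19.4 CPM, had more than ventral CA1, at 73.2 ± 18.9 CPM (SD, n = 3 each). Htr2a and Htr2c were higher by 3.48 (SE 0.65, adjusted p = 0.000288) and 4.22 (SE 0.53, adjusted p = 2.58e-06). Htr5b had at most 1.94 CPM in DG. The smallest of the 9 was Htr5a, at 0.92 (SE 0.31, adjusted p = 0.0258), lost without dorsal CA1 replicate 2, ventral CA1 replicate 1, ventral DG replicate 1 or ventral DG replicate 2 (adjusted p = 0.0582, 0.0806, 0.0571 and 0.0501). In CA3 over DG, 6 were called, beside 36.5% of all genes (19.6% higher and 16.9% lower in CA3). Htr1f, Htr2a, Htr2c and Htr7 were higher in CA3, of which Htr2a by 6.34 (SE 0.68, adjusted p = 2.69e-07) and Htr2c by 3.18 (SE 0.52, adjusted p = 5.92e-05). Htr1f and Htr7 each had a single read in the 6 DG libraries together, so their fitted folds depend on the prior count. Htr1a was lower in CA3 by -1.02 (SE 0.31, adjusted p = 0.0133) and Htr4 by -0.88 (SE 0.29, adjusted p = 0.0216). Htr1a lost its call without dorsal DG replicate 1 (adjusted p = 0.0724), and Htr4 without dorsal CA3 replicate 2, ventral CA3 replicate 3 or ventral DG replicate 2 (adjusted p = 0.0558, 0.0661 and 0.0657). Without dorsal DG replicate 1, Htr5a was called as higher in CA3 (adjusted p = 0.000298). In the fit of all 48 libraries Htr4 lost its calls against DG (adjusted p = 0.0807 for CA1 and 0.148 for CA3). Htr7 in CA1 over DG was lost with limma on log2(FPKM + 1) (0.066), and Htr1a in CA3 over DG without the filter on low counts (0.0685). Mitochondrial genes took 9.41% to 12.9% of gene reads in these CA1 libraries, 14.4% to 17.6% in CA3 and 14.9% to 20.7% in DG, and the part of this was not tested. These region contrasts share libraries with each other and with the long-axis contrasts.

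Across the cell layer of CA1, Htr1a led by FPKM in superficial cells. In deep cells Htr2a and Htr1a stood close, at 11.1 and 10.5 FPKM, with Htr2a ahead in 2 of 3 libraries. In superficial over deep CA1, 2 of 8 receptor genes tested were called, beside 2.48% of all genes (0.886% higher and 1.6% lower in superficial CA1). Htr1a had 255, 207 and 180 CPM in superficial cells and 30.1, 44.3 and 48.6 CPM in deep cells, a log2 fold change of 2.33 (SE 0.21, adjusted p = 0.000226). Htr2c had 2.33, 3.65 and 1.70 CPM in superficial cells and 54.6, 18.7 and 29.0 CPM in deep cells, a log2 fold change of -3.78 (SE 0.51, adjusted p = 0.00273). Neither overlapped between groups, and both calls held in all 6 fits with a library left out. Htr2a had 12.6, 7.81 and 12.8 CPM in superficial and 16.6, 41.9 and 33.2 CPM in deep libraries, without overlap (adjusted p = 0.0862). The deep libraries also had the interneuron genes given above: the summed level of 3 GABAergic markers was 150 to 685 CPM in deep and 14.9 to 143 CPM in superficial CA1. In the SST interneurons, where the same sum was 5310 to 6285 CPM, Htr2c was at 0.567, 0.187 and 35.2 CPM and Htr2a at 30.5, 17.3 and 30.6 CPM. In the PV interneurons Htr2c was at most 0.227 CPM. Htr2a was called without deep replicate 1 (adjusted p = 0.0319) and by DESeq2's Wald test (adjusted p = 0.00702). That replicate had the least Gad2 of the deep libraries, but also the high Sst given above. In the fit of all 48 libraries the adjusted p of Htr2c was 0.140.

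Along the transverse axis, no receptor gene was called between proximal and distal CA1 among 8 tested by edgeR, where 1.06% of all genes were called (0.818% higher and 0.244% lower in proximal CA1). At an unadjusted p under 0.05 there were 3 of 8, Htr2c, Htr5a and Htr5b, beside 13.5% of all genes. Htr2c had 3.49, 0.874 and 0.979 CPM in proximal and 12.1, 16.6 and 12.3 CPM in distal libraries, without overlap, with a log2 fold change of -2.93 (SE 0.67, adjusted p = 0.064). It was called without proximal replicate 1, which carried Gad2 (adjusted p = 0.0252), by DESeq2's Wald test (0.000606) and without the filter on low counts (0.0154). Htr5b had 17.3, 17.7 and 25.6 CPM in proximal and 12.1, 7.87 and 11.4 CPM in distal libraries, also without overlap (adjusted p = 0.301).

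Cells of ventral CA1 sorted by their target were set against ventral CA1 cells sorted by position. In amygdala-projecting over ventral CA1, 1 of 9 receptor genes tested was called, beside 2.38% of all genes (1.59% higher and 0.786% lower in amygdala-projecting cells). This was Htr2a, at 34.3, 82.9 and 69.6 CPM in amygdala-projecting and 3.51, 3.99 and 1.04 CPM in ventral libraries, far apart, with a log2 fold change of 4.47 (SE 0.75, adjusted p = 0.00421). It held in all 6 fits with a library left out. In accumbens-projecting over ventral CA1, Htr2a was again the 1 gene called, beside 2.04% of all genes (1.49% higher, 0.555% lower), at 5.88, 36.7 and 20.3 CPM in accumbens-projecting cells (log2 fold change 2.93, SE 0.71, adjusted p = 0.0444). That call was lost with the replicate block (adjusted p = 0.0673) and without any 1 of ventral replicate 1, 2 or 3 or accumbens-projecting replicate 2 or 3 (adjusted p = 0.0835 to 0.200), and with limma on either FPKM scale (0.19 and 0.16). The accumbens-projecting counts come from columns named acb, which were read as the samples titled nac, a reading that no label states. These contrasts share the ventral libraries. The endothelial gene Kdr, given above, was also higher in the projection-defined libraries, while Cldn5, Flt1 and Pecam1 were at most 7.12 CPM in any library. Mitochondrial genes took 16.6% to 20.2% of gene reads in amygdala-projecting, 15.4% to 16.8% in accumbens-projecting and 11.3% to 12.9% in ventral CA1 libraries. The part of either in these results was not tested.

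Between the projections themselves, amygdala-projecting over accumbens-projecting CA1, none of 9 receptor genes was called by edgeR, and 3 of 12981 genes were, 0.0231%, all 3 as lower in amygdala-projecting cells. At an unadjusted p under 0.05 there were 2, Htr2a and Htr2c, beside 9.19% of all genes, with adjusted p of 0.475 and 0.525. DESeq2's Wald test and limma called none of the receptor genes either. Htr7 was at 7.87, 4.23 and 9.17 CPM in amygdala-projecting cells and 10.8, 12 and 27.1 CPM in accumbens-projecting cells, which do not overlap (adjusted p = 0.679). Htr1d, at most 1.51 CPM in any library of the other populations, was at 3.23, 0.519 and 2.94 CPM in amygdala-projecting and 3.28, 0 and 28.1 CPM in accumbens-projecting libraries. The highest of these was the library with 506 CPM of Sst, while the SST interneurons themselves had at most 0.624 CPM of Htr1d. Htr1f was at 0.469, 24.0 and 2.47 CPM in amygdala-projecting libraries, so its mean of 8.99 ± 13.1 CPM (SD, n = 3) rested on replicate 2. Postsubiculum-projecting over dorsal CA1 gave no call among 8 receptor genes, where 10.8% of all genes were called (5.24% higher and 5.58% lower in postsubiculum-projecting cells). At an unadjusted p under 0.05 there were 2 of 8, beside 25.9% of all genes. Htr1a had 129, 123 and 137 CPM in postsubiculum-projecting and 142, 190 and 189 CPM in dorsal cells (adjusted p = 0.13), and Htr4 had 6.71, 10.1 and 12.2 CPM against 19.9, 18.4 and 19.7 CPM (adjusted p = 0.15). Neither pair of groups overlapped. DESeq2's Wald test and limma also called none. Mitochondrial genes took 11.3% to 13.4% of gene reads in postsubiculum-projecting cells, and 9.41% to 9.73% in dorsal cells.

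**Figure D4:**
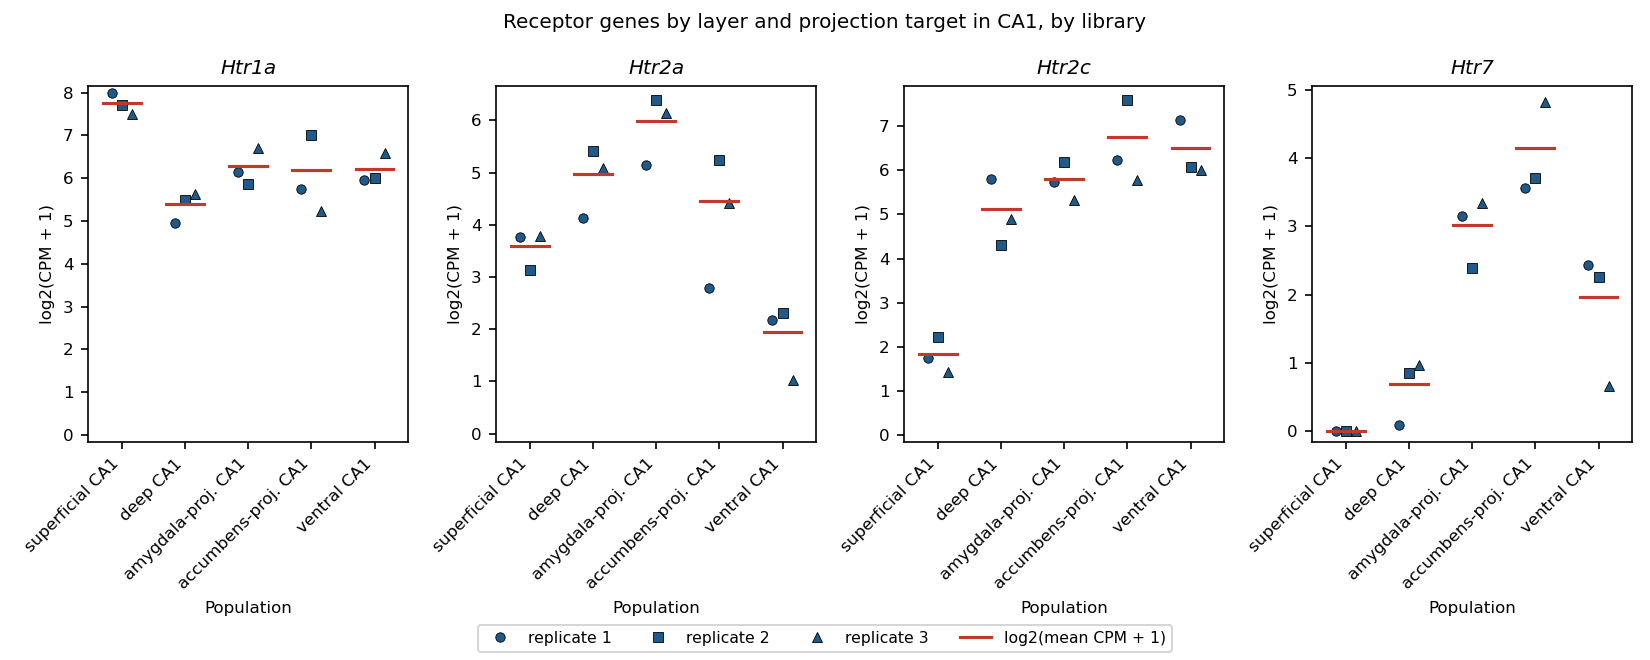
Levels of Htr1a, Htr2a, Htr2c and Htr7 by library, as log2(CPM + 1), in superficial, deep, amygdala-projecting, accumbens-projecting and ventral CA1. Symbols are replicates and the red line is log2(mean CPM + 1). Htr1a stands higher and Htr2c lower in superficial than in deep cells, and Htr2a stands higher in amygdala-projecting than in ventral cells.

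Htr1a set the interneuron classes apart. In PV over SST interneurons, 2 of 10 receptor genes were called, beside 6.15% of all genes (2.62% higher and 3.53% lower in PV interneurons). Htr1a had 0.165, 1.17 and 1.10 CPM in PV interneurons and 38.9, 23.9 and 41.8 CPM in SST interneurons, a log2 fold change of -5.43 (SE 0.52, adjusted p = 8.44e-05). Htr1f had 21.7, 32.9 and 22.3 CPM in PV and 7.26, 6.11 and 3.70 CPM in SST interneurons, a log2 fold change of 2.16 (SE 0.42, adjusted p = 0.00859). Neither gene overlapped between the classes, and both calls held in all 6 fits with a library left out. Htr7, at 2.89, 2.23 and 1.5 CPM in PV and 7.94, 6.53 and 3.50 CPM in SST interneurons, did not overlap either (adjusted p = 0.403). Htr2c and Htr5b had adjusted p of 0.0559 and 0.0566, and both turned on SST replicate 3. Htr2c was at 0.165, 0.227 and 0.162 CPM in PV and 0.567, 0.187 and 35.2 CPM in SST interneurons, and Htr5b had no read in PV and 0.340, 0 and 5.49 CPM in SST interneurons. Htr1b likewise had no read in PV interneurons and 0, 0.140 and 7.64 CPM in SST interneurons. The CA1 pyramidal gene Fibcd1 was at 12.7 CPM in that library against 19.7 and 12.5 CPM in the other SST libraries. Cx3cr1, a microglial gene, was at 45.7 CPM in it against 5.16 and 0.233 CPM. The other microglial markers listed did not reach that level: Csf1r was at most 11.6 and P2ry12 at most 7.09 CPM in any library. Without SST replicate 1, Htr1b and Htr2c were called (adjusted p = 0.0354 and 0.032), and without SST replicate 2, Htr2c and Htr5b were called (0.0159 and 0.0116). In the fit of all 48 libraries the adjusted p of Htr1f was 0.269. Markers of each class were also present in the other. The summed level of 3 SST interneuron markers (Sst, Npy, Reln) was 485 to 1971 CPM in PV and 7230 to 9326 CPM in SST interneurons. That of 3 PV interneuron markers was 2192 to 2666 and 111 to 266 CPM. The sum of 4 oligodendrocyte markers was 5.20 to 34.3 CPM in PV and 50.4 to 704 CPM in SST interneurons. The part of these markers was not tested.

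Against dorsal CA1 pyramidal cells, PV interneurons had 6 of 10 receptor genes called, beside 29.7% of all genes (16.3% higher and 13.4% lower in PV interneurons). Htr1a was lower by -7.75 (SE 0.57, adjusted p = 7.66e-07), Htr2c by -5.49 (SE 1.65, adjusted p = 0.0244) and Htr4 by -2.16 (SE 0.70, adjusted p = 0.0354). Htr5b, without a read in PV interneurons and with a mean of 29.7 ± 21.9 CPM in dorsal CA1 (SD, n = 3), was at least 248-fold lower in PV interneurons, or at least 143-fold without dorsal CA1 replicate 3, its highest library, and Htr1b, at 3.46 ± 0.0664 CPM in dorsal CA1, at least 28.9-fold lower, at the same floor. Htr7 was higher in PV interneurons, at 2.89, 2.23 and 1.5 CPM against 0.199, 0.205 and 0.586 CPM in dorsal CA1, with a log2 fold change of 2.71 (SE 0.93, adjusted p = 0.0454). The calls of Htr1a and Htr5b held in all 6 fits with a library left out. That of Htr1b held in 3 (adjusted p = 0.0516 to 0.0561 without any 1 PV replicate), that of Htr2c in 2 (0.0659 to 0.0816 without dorsal replicate 1 or any 1 PV replicate), and those of Htr4 and Htr7 in 1 each. The adjusted p of Htr4 was 0.083 to 0.0933 without any 1 dorsal replicate or PV replicate 1 or 3, and that of Htr7 was 0.0561 to 0.162 without any 1 dorsal replicate or PV replicate 1 or 2. The replicate block also ended the calls of Htr4 (adjusted p = 0.0602) and Htr7 (adjusted p = 0.0942), and without a filter on low counts those of Htr2c, Htr5b and Htr7 were lost (adjusted p = 0.101, 0.0741 and 0.118). With limma on log2(FPKM + 1) and log2(FPKM + 0.1), Htr2c (0.155 and 0.0682) and Htr7 (0.314 and 0.137) were not called, nor was Htr7 with all 48 libraries (0.0682). DESeq2 gave Htr1b no adjusted p. Mitochondrial genes took 19.0% to 24.5% of gene reads in PV, 14.6% to 19.9% in SST interneurons and 9.41% to 9.73% in dorsal CA1, and their part in the interneuron results was not tested.

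SST interneurons over dorsal CA1 gave 4 called receptor genes, beside 27.4% of all genes (15.6% higher and 11.9% lower in SST interneurons). Htr1a was lower by -2.32 (SE 0.43, adjusted p = 0.00155), Htr1f by -1.27 (SE 0.41, adjusted p = 0.035) and Htr4 by -2.26 (SE 0.71, adjusted p = 0.0316). Htr7 was higher by 4.15 (SE 0.99, adjusted p = 0.00789), at 7.94, 6.53 and 3.50 CPM in SST interneurons, above every dorsal CA1 library. Those of Htr1a and Htr7 held in all 6 fits with a library left out, and those of Htr1f and Htr4 in 1 each. Without any 1 dorsal replicate, or without SST replicate 2 or 3, the adjusted p of Htr1f was 0.0601 to 0.110, and without any 1 dorsal replicate or SST replicate 1 or 2 that of Htr4 was 0.0768 to 0.101. With the replicate block they were 0.0517 and 0.0538. Htr1f was also lost with all 48 libraries (0.428) and without the filter on low counts (0.0777), and Htr7 with limma on log2(FPKM + 1) (0.0569). Both interneuron contrasts share the dorsal CA1 libraries, and the median of all genes tested lay at 0.13 for PV and 0.09 for SST interneurons over dorsal CA1. Htr2a was at 4.95, 12 and 29.3 CPM in PV interneurons, 30.5, 17.3 and 30.6 CPM in SST interneurons, and 14.2, 18.9 and 7.76 CPM in dorsal CA1, overlapping throughout. Without SST replicate 3, Htr1b, Htr2c and Htr5b were also called as lower in SST interneurons than in dorsal CA1 (adjusted p = 0.0464, 0.0105 and 0.000966), and Htr5b was called with the replicate block (adjusted p = 0.00859). For Htr2c, leaving out SST replicate 3 turned the direction, with a log2 fold change of -4.51 without that library and 0.52 with it (adjusted p = 0.815). With no library left out, limma on log2(FPKM + 1) and log2(FPKM + 0.1) called Htr5b (adjusted p = 0.00106 and 0.00497) and Htr1b (0.00669 and 0.0228) as lower in SST interneurons. The fit of all 48 libraries called Htr5b too (adjusted p = 0.000836), and its libraries did not overlap between the groups.

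**Figure D5:**
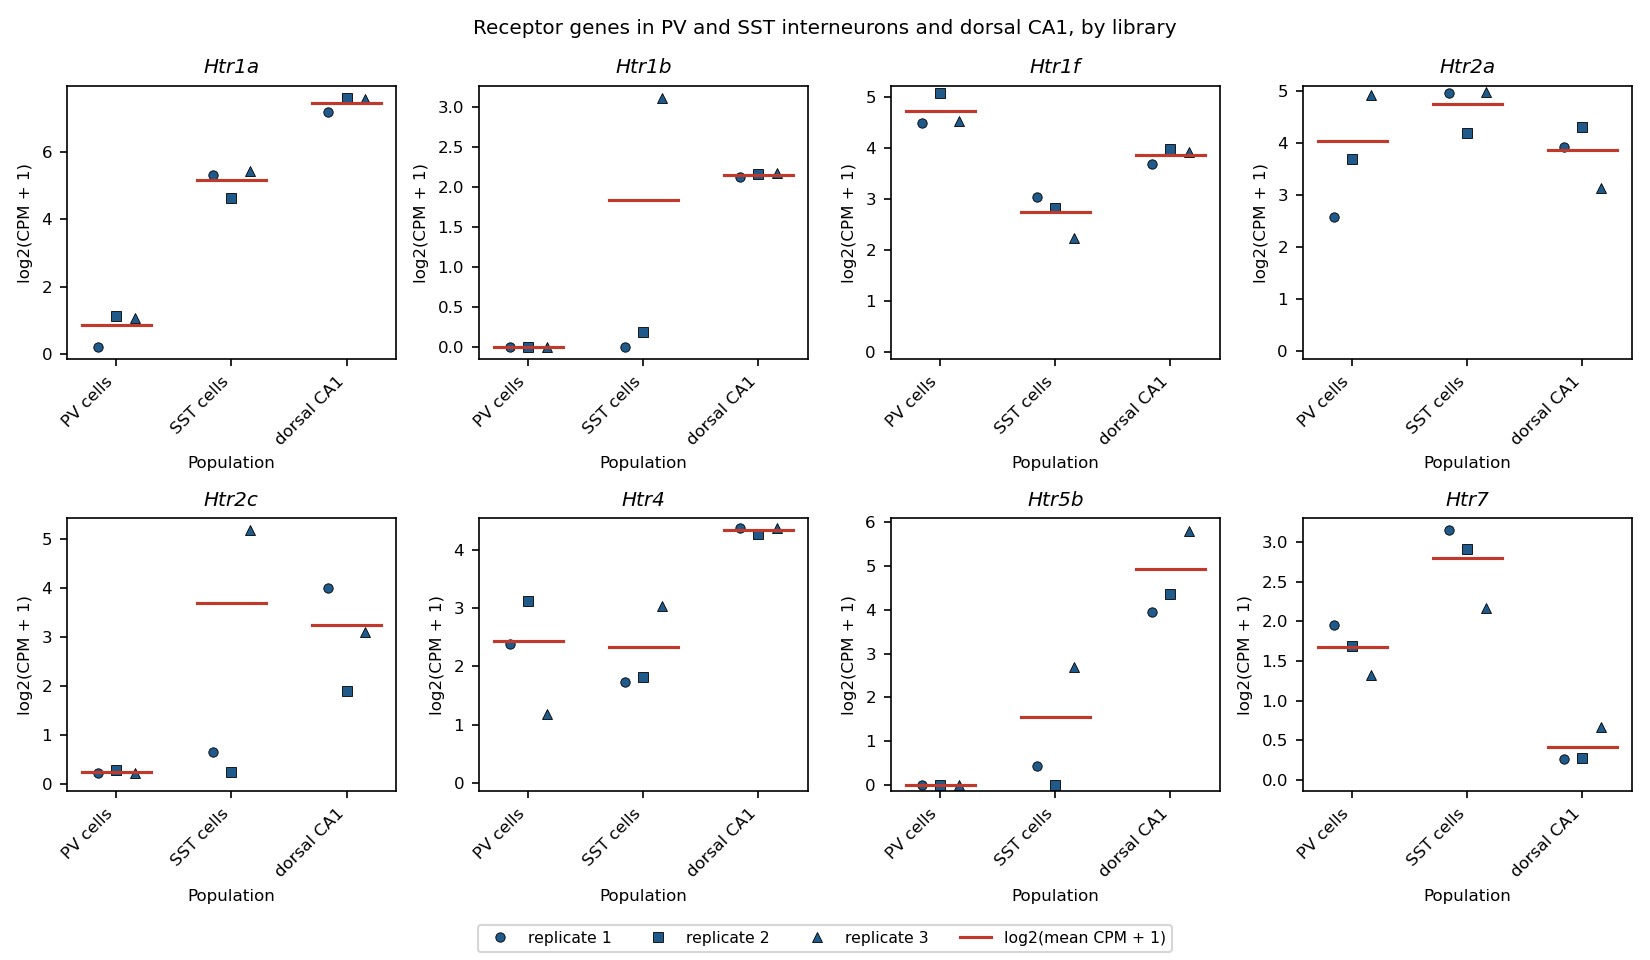
Levels of 8 receptor genes by library, as log2(CPM + 1), in PV interneurons, SST interneurons and dorsal CA1 pyramidal cells. Symbols are replicates and the red line is log2(mean CPM + 1). Htr1a is lowest in PV interneurons and highest in dorsal CA1, Htr1f is highest in PV interneurons, and Htr7 is higher in both interneuron classes than in dorsal CA1.

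Ordered by mean level over the 16 populations, most neighbouring populations overlapped in their libraries. Of the 15 neighbouring pairs of each gene, the pairs that did not overlap numbered 3 for Htr7, 2 each for Htr1a, Htr2c and Htr5b, 1 each for Htr1b, Htr1f, Htr2a, Htr4 and Htr5a, and 0 for Htr1d. All such pairs of Htr2c and Htr5b include libraries under the level of 3 reads, where levels cannot be told from 0. So do the Htr7 pairs below PV interneurons and below intermediate CA1. For Htr1a the order ran from superficial, dorsal CA1, ventral DG, proximal, postsubiculum-projecting, distal, intermediate, amygdala-projecting, ventral and accumbens-projecting CA1 through ventral CA3, deep CA1 and SST interneurons to dorsal DG, dorsal CA3 and PV interneurons. The gaps lay below SST interneurons and above PV interneurons. Htr7 had gaps below accumbens-projecting CA1, at 16.7 ± 9.07 CPM, and below PV interneurons, at 2.21 ± 0.693 CPM (SD, n = 3 each). It had no read in postsubiculum-projecting, superficial and distal CA1 and in dorsal DG. Htr5b ran from ventral to distal CA1 without leaving CA1, between 41.5 ± 7.51 and 10.5 ± 2.27 CPM, and next stood at 1.94 ± 3.08 CPM in SST interneurons, so its 10 highest populations were the 10 CA1 pyramidal populations. The gap of Htr1f lay below PV interneurons, its highest population. Htr5a varied least in ratio, from 57.0 ± 13.0 CPM in accumbens-projecting to 12.2 ± 2.94 CPM in distal CA1, and it was the 1 member with at least 1 FPKM on average in all 16 populations.

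The genes most alike in pattern were found by Pearson's r of log2(mean CPM + 1) over the 16 population means among 10401 genes, as a description. Points share libraries and depth across genes, and many genes are compared. Htr5b had the closest match of the 10, with Ccn3 (r = 0.970), followed by Pik3r1 (0.945). Htr7 was most like Socs2 (0.937), Htr1d like Cspg4 (0.937), Htr1b like Pantr1 (0.922) and Htr1f like Cab39 (0.890). Htr1a was most like Lix1l (0.876), Pex5l (0.858) and Sft2d2 (0.858), and Htr2a was most like Sulf2 (0.862), Armh4 (0.847) and Lats2 (0.807). Htr2c was most like Gorasp2 (0.827), Met (0.804) and Ctnnd2 (0.793). Htr5a was most like Gmcl1 (0.853) and Htr4 like Lrp1b (0.840). Among the 10 receptor genes, the highest r was 0.769, between Htr1a and Htr5b, and the lowest was -0.588, between Htr1f and Htr4.

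Genes around the receptors were read from lists grouped by function. Of the other serotonin receptors listed, Htr3a, the ion channel subunit known from a class of interneurons, had 1.06, 1.07 and 1.22 CPM in the 3 proximal CA1 libraries, 2.76 CPM in deep CA1 replicate 2 and 6.02 CPM in SST replicate 2. It had no read in 11 populations. Htr3b had at most 0.243 CPM in any library. Htr6, coupled to Gs, had 0.254, 15.3 and 27.3 CPM in dorsal DG, and was lower in CA1 than in CA3 (log2 fold change -2.04, SE 0.66, adjusted p = 0.0426) and than in DG (-2.47, SE 0.67, adjusted p = 0.00685). Htr2b, which was named after its values were seen, had 0, 4.41 and 10.8 CPM in dorsal DG, so both genes were near 0 in replicate 1 and higher in replicates 2 and 3. Htr6 was called in dorsal over ventral DG (log2 fold change 2.86, SE 0.93, adjusted p = 0.0358), at 1.40, 2.62 and 1.94 CPM in ventral DG, with dorsal replicate 1 below all of them.

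Of 9 genes for serotonin synthesis, transport and breakdown, Tph1 averaged at most 0.263 CPM and Tph2 at most 3.12 CPM in any population, and Slc6a4, the serotonin transporter, at most 0.568 CPM. Slc29a4, a low-affinity monoamine transporter, averaged up to 111 CPM in dorsal DG, and was lower in CA1 than in DG by -4.29 (SE 0.36, adjusted p = 6.01e-09) and in CA3 than in DG by -3.15 (SE 0.33, adjusted p = 1.98e-07). None of the 3 genes of this list that could be tested was called in dorsal over ventral CA1 by edgeR. In CA1 over CA3, 2 of 6 were lower, Slc18a2 and Slc29a4, and none higher, beside 8.15% lower and 5.34% higher of all genes. In CA1 over DG, 2 of 6 were lower and none higher, beside 15.7% and 17.4% of all genes. In CA3 over DG, 2 of 6 were higher and 1 lower, beside 19.6% and 16.9% of all genes, and none of 5 was called in PV over SST interneurons. In postsubiculum-projecting over dorsal CA1, 2 of 4 were higher, beside 5.24% of all genes. Slc18a2, which loads monoamines into vesicles, averaged 34.6 ± 4.74 CPM in postsubiculum-projecting and 6.74 ± 0.780 CPM in dorsal cells (SD, n = 3 each, log2 fold change 2.40, SE 0.34, adjusted p = 0.00142). Ddc, which makes serotonin and dopamine from their precursors, had 0.580 to 1.17 CPM in postsubiculum-projecting cells and no read in dorsal cells (adjusted p = 0.0335).

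Of 16 genes of G proteins and effectors, 15 were tested in dorsal over ventral CA1, where 6 were higher and 4 lower, beside 7.17% and 7.95% of all genes. Gnaq, the Gq subunit (log2 fold change 0.53, SE 0.09, adjusted p = 0.000228), Plcb4, a phospholipase C (2.43, SE 0.45, adjusted p = 0.000678), and Gnao1, the Go subunit (0.38, SE 0.08, adjusted p = 0.00203), were higher. Gnal, a Gs-like subunit (-2.10, SE 0.25, adjusted p = 6.61e-06), Gnai1 (-0.66, SE 0.10, adjusted p = 0.000112) and Itpr1, an intracellular calcium channel (-0.56, SE 0.10, adjusted p = 0.000478), were lower. In dorsal over ventral CA3, 6 of 16 were higher and none lower by edgeR, beside 2.5% and 2.48% of all genes, among them Itpr1 (2.36, SE 0.20, adjusted p = 1.38e-07) and Gnaq (0.74, SE 0.12, adjusted p = 0.000506). In CA1 over CA3, 3 of 16 were higher and 2 lower, beside 5.34% and 8.15% of all genes, including Itpr1 (3.44, SE 0.15, adjusted p = 1.08e-12) and Kcnj9, a subunit of the potassium channels that Htr1a opens (2.35, SE 0.25, adjusted p = 6.73e-07). In CA1 over DG, 7 of 16 were higher, beside 17.4% of all genes, among them Gnai1 (2.03, SE 0.12, adjusted p = 7.26e-11), and 1, Gnal, was lower (-2.34, SE 0.19, adjusted p = 5.70e-09), beside 15.7%. In CA3 over DG, 6 of 16 were higher and 4 lower, beside 19.6% and 16.9% of all genes. In PV over SST interneurons 3 of 16 were higher and none lower, beside 2.62% and 3.53% of all genes: Itpr1 (2.25, SE 0.33, adjusted p = 0.00152), Kcnj3 (1.26, SE 0.31, adjusted p = 0.0314) and Kcnj6 (1.16, SE 0.30, adjusted p = 0.0393).

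Of 16 partners and regulators, 15 were tested in dorsal over ventral CA1, where 1 was higher and 5 lower, beside 7.17% and 7.95% of all genes. Dlg4, a postsynaptic scaffold, was higher (log2 fold change 0.45, SE 0.11, adjusted p = 0.00915). Mpdz, a scaffold that binds the Htr2c protein, was lower (-1.13, SE 0.19, adjusted p = 0.000277), as were Deaf1, a repressor of Htr1a transcription in some neurons (-1.25, SE 0.25, adjusted p = 0.00137), and Arrb1, an arrestin (-0.97, SE 0.20, adjusted p = 0.00215). In CA1 over CA3, 1 of 15 was higher and 3 lower, beside 5.34% and 8.15% of all genes, among them Adarb1, an enzyme that edits the Htr2c transcript (-1.53, SE 0.16, adjusted p = 6.78e-07). In CA1 over DG, 3 of 15 were higher and 3 lower, beside 17.4% and 15.7% of all genes. In CA3 over DG, 3 of 15 were higher and none lower, beside 19.6% and 16.9%. S100a10, a protein that binds Htr1b and Htr4 receptors, was higher in CA1 than in DG (2.94, SE 0.64, adjusted p = 0.00117), higher in CA3 than in DG (3.55, SE 0.64, adjusted p = 0.000191), and lower in PV than in SST interneurons (-4.60, SE 1.13, adjusted p = 0.0312). In PV over SST interneurons, Rgs4, which speeds the shut-off of Gi/o and Gq signals (1.63, SE 0.22, adjusted p = 0.000829), and Mpdz (1.81, SE 0.35, adjusted p = 0.00844) were higher, 2 of 16 beside 2.62% of all genes.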

How the data were processed

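RNA of hand-sorted neuron pools was amplified with the Ovation RNA-seq v2 kit and sequenced on an Illumina HiSeq, per the labels' protocols and the series' text. Per the submitters' processing notes, TopHat2 2.0.6, HTSeq, DESeq2 and Cuffdiff 2.1.1 were used with builds NCBIM37 and mm9. The authors deposited a table of read counts per gene and a table of FPKM values (reads scaled by library size and transcript length) by Cuffdiff, with 115 genes of failed values left out here. The strand used in counting is not given in the sources used here. The 92 ERCC rows and 5 summary rows stayed out of library sizes, and reads outside genes were 20.8% to 47.2% of a library. Columns name a population and a replicate number that runs one above the titles, so each was used as a replicate of its group, numbered as in the count table. Count columns named acb were read as the samples titled nac (nucleus accumbens), which no label states, and the accumbens-projecting values rest on that reading. Of 37620 gene IDs, 32897 were named from the reference.

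Counts were tested with edgeR 4.0.16 (R 4.3.3): TMM, filterByExpr, robust quasi-likelihood fits and F tests, adjusted by the Benjamini-Hochberg method over all genes tested and called at an adjusted p under 0.05. Populations of 1 axis or region shared a fit. Alternatives were DESeq2 1.42.0 size factors and Wald test, no filter, a fit of all 48 libraries, limma 3.58.1 on log2(FPKM + 1) and log2(FPKM + 0.1), a replicate block and single libraries left out. The edgeR fits were tested on simulated data. The 10 receptor genes, the like-patterned genes (the 3 of highest r for each receptor gene, of which the text gives at least the first), the pathway lists and the markers followed rules written with earlier results of these data known. Pathway genes given for dorsal over ventral CA3 or DG, or for postsubiculum-projecting over dorsal CA1, were named outside these rules. Limits that follow from counts of 0 use 3 reads per library and cover counting error only.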

Additional observations from a re-analysis of the deposited data

Results flagged for a closer look

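Results are given here where the dorsal-ventral difference of a gene in 1 region departed from that in CA1 by the test of the difference itself (edgeR's interaction term, adjusted p over all genes). In CA3, the departures on the log2 scale were -3.77 for Htr1a (adjusted p = 0.000642), -4.96 for Htr2a (0.00993), 6.18 for Htr2c (0.000266) and -2.56 for Htr4 (0.0135). Htr1a, Htr2a and Htr4 were called as higher in dorsal CA1, and all 3 had their higher means in ventral CA3, while Htr2c had its higher mean in ventral CA1 and in dorsal CA3. Htr2a was not called without the filter on low counts (adjusted p = 0.0907) or with limma on log2(FPKM + 0.1) (0.0631), nor was Htr4 with limma on log2(FPKM + 1) or log2(FPKM + 0.1) (0.0517 and 0.0564) or with all 48 libraries (0.174). In DG, the departures were -4.77 for Htr1a (adjusted p = 5.17e-05) and -7.22 for Htr5b (0.046), the second fitted against a group without reads and lost with most single libraries left out (adjusted p = 0.0542 to 0.101), the replicate block (0.0571), all 48 libraries (0.0607) and limma on either FPKM scale (0.963 and 0.15). Ventral CA3 replicate 3 had the highest Calb2 and the lowest Coch and Htr2a of its group, and its part in the result for Htr2a was not tested beyond leaving it out, which kept the call.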

How the results depend on the processing

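None of the receptor genes called by edgeR turned its direction under an alternative run. Htr2c in SST interneurons over dorsal CA1, not called at a log2 fold change of 0.52 (adjusted p = 0.815), was called at -4.51 without SST replicate 3 (0.0105). Of the 10 receptor genes, the number called in dorsal over intermediate CA1 was 1, and 2 with DESeq2's Wald test or no filter, 0 with limma on either FPKM scale or in the fit of all 48 libraries. Intermediate over ventral CA1 gave 1, and 0 with limma on either scale or all 48 libraries. Proximal over distal CA1 gave 0, and 1 with the Wald test, no filter or all 48 libraries. Accumbens-projecting over ventral CA1 gave 1, 2 with the Wald test, and 0 with limma on either scale or the replicate block. The DG-minus-CA1 interaction gave 2, and 1 with the replicate block or all 48 libraries. Dorsal over ventral DG gave 3, and 1 with limma on log2(FPKM + 1), and the CA3-minus-CA1 interaction 4, and 2 with limma on log2(FPKM + 0.1). PV over SST interneurons gave 2, and 4 with the Wald test or all 48 libraries, and PV interneurons over dorsal CA1 6, and 3 with no filter. With all 48 libraries, dorsal over ventral CA1 gave 1 in place of 5, superficial over deep CA1 1 in place of 2 and amygdala-projecting over ventral CA1 2 in place of 1. Over all genes, the number called also moved by over 1.5 times. It was 1837 for dorsal over ventral CA1 and 665 with all 48 libraries. For dorsal over intermediate CA1 it was 599, against 101 with all 48 libraries and 227 and 236 with limma, and for intermediate over ventral CA1 611, against 80, 356 and 285. Proximal over distal CA1 gave 135, against 591 by the Wald test, 301 without the filter and 54 and 41 with limma. Superficial over deep CA1 gave 311, against 736, 511, 98 and 88, and 65 with all 48 libraries. Amygdala-projecting over accumbens-projecting CA1 gave 3, against 199 by the Wald test, 180 without the filter, 354 with all 48 libraries, 1 with the block and 0 with limma. Over ventral CA1, amygdala-projecting cells gave 309, against 748, 662 and 926 and 193 with limma on log2(FPKM + 0.1), and accumbens-projecting cells 265, against 694, 543 and 915 and 168 and 141 with limma. Postsubiculum-projecting over dorsal CA1 gave 1370, against 2363 by the Wald test and 765 with all 48 libraries, the CA3 interaction 547, against 855 and 296, and the DG interaction 1510, against 2394 and 792. With all 48 libraries, dorsal over ventral CA3 gave 438 in place of 773 and dorsal over ventral DG 1883 in place of 3010. PV over SST interneurons gave 903, and 1677 by the Wald test. The cause was not tested.

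With single libraries left out, counts ran from 3 to 5 for dorsal over ventral CA1, 0 to 1 for dorsal over intermediate, intermediate over ventral, proximal over distal and accumbens-projecting over ventral CA1, 2 to 3 for superficial over deep CA1, 1 to 5 for dorsal over ventral CA3, 2 to 4 for dorsal over ventral DG, 8 to 9 for CA1 over DG, 5 to 6 for CA3 over DG, 3 to 5 for the CA3 and 1 to 2 for the DG interaction, 2 to 4 for PV over SST interneurons, 2 to 4 for PV interneurons and 2 to 6 for SST interneurons over dorsal CA1. CA1 over CA3 stayed at 5, amygdala-projecting over ventral CA1 at 1, and amygdala-projecting over accumbens-projecting and postsubiculum-projecting over dorsal CA1 at 0. The test for any difference among the 16 populations was not repeated with libraries left out.

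Same-numbered libraries did not deviate together (correlations of -0.06 to 0.06 over 7 fits), so the numbers were not taken as pairs. With the replicate block, the count was 4 for dorsal over ventral CA1, 2 for dorsal over ventral CA3, 4 for PV and 3 for SST interneurons over dorsal CA1. At the lowest depth, 3 reads are 0.544 CPM, so levels below that cannot be told from 0 in that library.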
